A study of Mus musculus with 2 samples.

Results

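The 7 genes described here, Cd274, Pdcd1lg2, Lgals9, Tnfrsf14, Cd200, Il4i1 and Fgl2, encode surface and secreted proteins through which cells restrain lymphocytes and myeloid cells. They were taken as a list by symbol, were all found in the files, and are 7 of 27933 gene symbols. Their transcripts were counted in single stromal cells of mouse mandibular lymph nodes, the nodes that drain the head, in 1 library prepared after a sham operation and 1 library prepared after subarachnoid haemorrhage (SAH), bleeding around the brain that was produced here by infusing the animals' own blood. Nodes were taken at 24 h and those of 20 mice were pooled in each library, so there is 1 sample per group, animals cannot be told apart, and no test between the groups was made. Strain, age and sex are not given in the sources used here. In both groups CD45-bearing leukocytes were depleted with beads and the remaining cells were enriched on beads for the surface proteins CD31 and podoplanin.

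Programmed death ligands PD-L1 (Cd274) and PD-L2 (Pdcd1lg2) bind PD-1 on activated T cells and dampen their response. Galectin-9 (Lgals9) is a sugar-binding protein with TIM-3 among its partners, HVEM (Tnfrsf14) engages BTLA, and CD200 (Cd200) signals to a receptor on myeloid cells. IL4I1 (Il4i1) is a secreted amino acid oxidase that deprives and inhibits T cells, and FGL2 (Fgl2) is a fibrinogen-like protein that in its soluble form binds an inhibitory Fc receptor. Lymph node lymphatic endothelium is known for presenting self antigens to T cells while carrying PD-L1, a setting in which T cells are tolerised.

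The promoters of these genes are shown first because interferons are known to drive several of them through short elements bound by IRF and STAT factors. In RefSeq promoters of build GRCm38.p6, from 250 bases before to 50 bases after each start, the letters GAAANNGAA (an IRF element, both strands searched) occurred in the windows of 3 members, Cd274, Lgals9 and Tnfrsf14, and in 8.56% of all 32851 promoters. The letters TTCNNNGAA (a GAS element, which reads the same on both strands) occurred in 1 member, Fgl2, and in 8.30% of promoters. The IRF match of Cd274 began at position -76 from the start and that of Tnfrsf14 at -63, and the GAS match of Fgl2 at -36. Lgals9 held 2 IRF matches, 1 upstream of the start and 1 after it. The windows of Pdcd1lg2, Cd200 and Il4i1 held neither set of letters, which says nothing about the factors themselves. The 150 bases before the start are given for Lgals9, which was higher in the SAH library in all 3 stromal classes, for Cd274, and for Cd200, which was level between the libraries in each class. Each is printed 5′ to 3′ on the gene's strand, and capitals mark the IRF letters, which are read there in reverse complement.
Lgals9, chr11:78984925-78985074, minus strand: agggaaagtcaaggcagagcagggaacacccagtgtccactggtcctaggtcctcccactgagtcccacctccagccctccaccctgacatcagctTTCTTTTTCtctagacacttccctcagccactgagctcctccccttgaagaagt
Cd274, chr19:29367288-29367437, plus strand: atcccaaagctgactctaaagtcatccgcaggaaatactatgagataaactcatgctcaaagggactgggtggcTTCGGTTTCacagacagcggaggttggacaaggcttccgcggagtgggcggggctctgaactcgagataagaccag
Cd200, chr16:45409054-45409203, minus strand: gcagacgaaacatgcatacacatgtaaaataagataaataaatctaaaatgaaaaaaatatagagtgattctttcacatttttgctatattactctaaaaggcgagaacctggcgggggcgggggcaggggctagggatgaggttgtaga

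Cells were assigned by marker transcripts, as the list's rule states. Lymphatic endothelial cells (LEC) had at least 1 UMI, a counted transcript molecule, of Prox1, the lymphatic master regulator. Blood endothelial cells (BEC) had no Prox1, at least 1 UMI of Pecam1 and at least 1 of Ly6c1 or Flt1, and fibroblastic stroma had neither Prox1 nor Pecam1 and at least 3 UMIs of Dcn and Col3a1 together. After filtering, 11157 sham and 11454 SAH cells remained, at a median of 5039 and 5747 UMIs per cell. LEC numbered 2364 and 2562, BEC 6329 and 6480, and fibroblastic stroma 1532 and 1631 cells, so that although both libraries are labelled as lymphatic endothelial cells, LEC made up 21.2% and 22.4% of them and BEC 56.7% and 56.6%. Every marker of the LEC, BEC and fibroblastic lists was detected in its class, but the lists include the genes of the class rules. In CPM (UMIs of a gene scaled to a common total for each class), the LEC list summed to 3079 and 4490 in LEC. It summed to 3089 and 5418 CPM in BEC, where its highest gene gave 3012 and 5300 CPM. In fibroblastic stroma it summed to 10609 and 15845 CPM, of which its highest gene gave 10532 and 15736 CPM. The BEC list summed to 9936 and 10670 CPM in BEC, against 3826 and 4391 CPM in LEC. LEC were deeper in the SAH library, at a median of 8193 against 6871.5 UMIs, as was fibroblastic stroma at 6336 against 4767.5, while BEC lay at 4754 and 4602.

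Transcripts of other cell types were counted in each class. The 4 markers of high endothelial venules (HEV) summed to 6067 CPM in sham and 5399 CPM in SAH LEC, of which Glycam1 gave 6015 and 5335 CPM. The sum was 19899 and 15398 CPM in the LEC group with Madcam1 or Coch described below, and 1125 and 1779 CPM in that with Ackr4. LEC with a Ly6c1 or Flt1 UMI made up 36.8% and 58.1%. BEC with a UMI of Mmrn1, Lyve1 or Reln, genes of lymphatics, made up 10.8% and 17.9%. The 3 epithelial markers summed to 90.6 and 496 CPM in BEC, of which the salivary gene Smr3a gave 85.2 and 494 CPM. Their sum was 43.3 and 1574 CPM in BEC with the HEV genes Chst4 or Fut7. In BEC with the arterial genes Gja5 or Sema3g it was 102 and 92.9 CPM. Exactly 1 Prox1 UMI was counted in 24.3% and 24.2% of LEC. Leukocyte lists were low in LEC as a whole. The 3 B cell markers summed to 7.76 and 5.64 CPM, the 4 T or NK cell markers to 2.15 and 1.54 CPM, and the 4 myeloid markers to 6.14 and 8.85 CPM, with Itgam at 0 in the sham library. The 4 dendritic cell markers summed to 62.6 and 59.7 CPM, of which Zbtb46 gave 60.6 and 59.0 CPM, while Flt3 was at 0 in both libraries and Itgax in the sham library. Neutrophil markers, 2 in number, summed to 4.95 and 14.1 CPM in LEC. They summed to 53.4 and 2.90 CPM in the LEC group with Marco described below. In LEC with none of the group markers they summed to 0.544 and 43.9 CPM (Csf3r at 0 in the sham library). In BEC the myeloid markers summed to 4.96 and 17.6 CPM and the 2 plasma cell markers to 4.33 and 19.3 CPM. In fibroblastic stroma the plasma cell markers summed to 130 and 3.25 CPM, the 2 neutrophil markers to 1.76 and 19.0 CPM (Csf3r at 0 in the sham library) and the myeloid markers to 3.53 and 8.92 CPM. The 4 markers of mural cells (pericytes and smooth muscle) summed to 1371 and 910 CPM in fibroblastic stroma. Among its cells with under 2 Ccl19 UMIs and no Pi16 they summed to 1611 and 1174 CPM. Their part in the differences of this class was not tested. Cells of the SAH library that shared a barcode with the sham library numbered 58 of those kept, from 76 barcodes common to both files.

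Differences between the libraries are given as the SAH level over the sham level with an exact 95% interval that covers counting error only, not the variation between animals or preparations. A gene was counted as higher or lower when it was at least 1.5-fold apart, among genes with at least 30 UMIs in both libraries together. In LEC, 8.48% of 12946 genes were higher and 5.77% lower in the SAH library by this rule; in BEC 11.5% of 13483 genes were higher and 5.1% lower; and in fibroblastic stroma 7.86% of 11939 genes were higher and 9.41% lower. Of the 7 members, 2 of the 5 with enough UMIs were higher in LEC (Lgals9 and Fgl2), 1 of 6 in BEC (Lgals9) and 1 of 5 in fibroblastic stroma (Lgals9), where 1 was lower (Fgl2). The members' median log2 difference was 0.45 in LEC, 0.19 in BEC and 0.38 in fibroblastic stroma, beside 0.00, 0.03 and -0.06 over all genes.

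**Figure D1:**
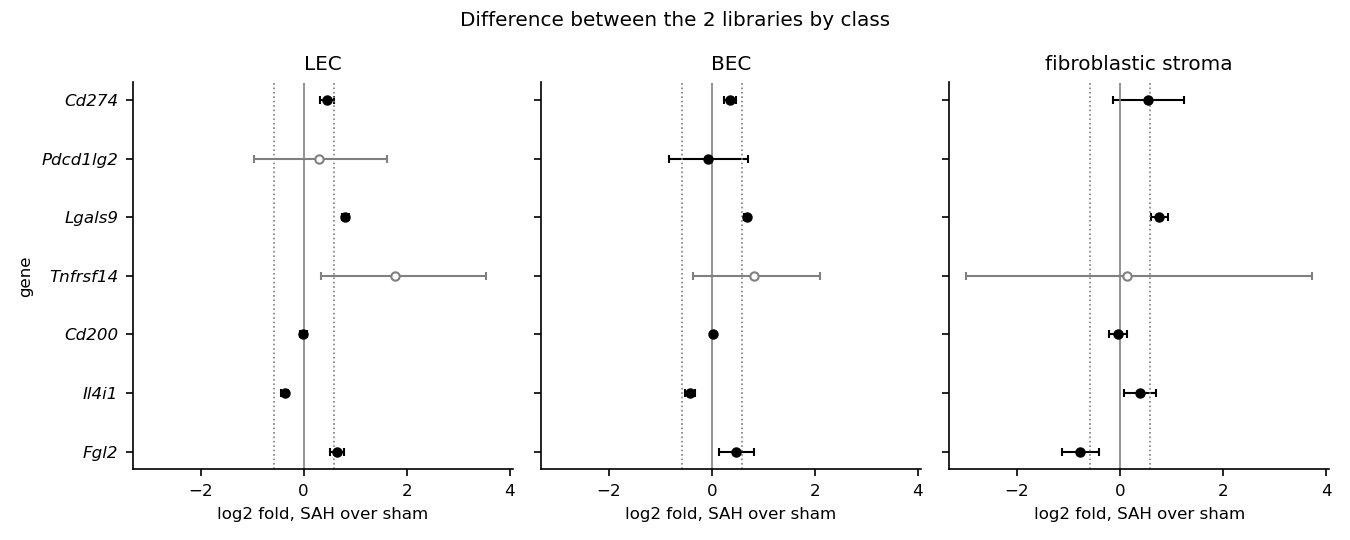
The log2 ratio of the SAH to the sham level (x axis) of each gene (y axis) in the 3 stromal classes, with 95% counting intervals; dotted lines mark 1.5-fold and open grey symbols genes with under 30 UMIs. Lgals9 lies beyond the upper dotted line in each class, Cd200 lies at 0, and Fgl2 lies above 0 in LEC and BEC and below it in fibroblastic stroma.

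Lgals9 was higher in the SAH library in all 3 classes. In LEC its level was 131 CPM in the sham library and 229 CPM in the SAH library, in BEC 143 and 229 CPM, and in fibroblastic stroma 54.2 and 91.8 CPM. The SAH level was thus 1.75-fold higher in LEC (interval 1.67 to 1.84), 1.60-fold in BEC (1.55 to 1.66) and 1.69-fold in fibroblastic stroma (1.51 to 1.90). It was carried by many cells rather than few. When each cell was thinned to 2000 UMIs so that depth was equal, 21.5% of sham LEC and 32.2% of SAH LEC held an Lgals9 UMI (without thinning 56.1% and 73.5%), and 24.1% and 34.3% of BEC did. The 10 cells with most Lgals9 UMIs held 3.94% and 3.28% of those in LEC. LEC and BEC stood 2.42-fold and 2.64-fold above fibroblastic stroma in the sham library. Between them the order was BEC over LEC there (LEC over BEC 0.916, interval 0.872 to 0.961) and could not be set in the SAH library (1.00, interval 0.967 to 1.04).

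**Figure D2:**
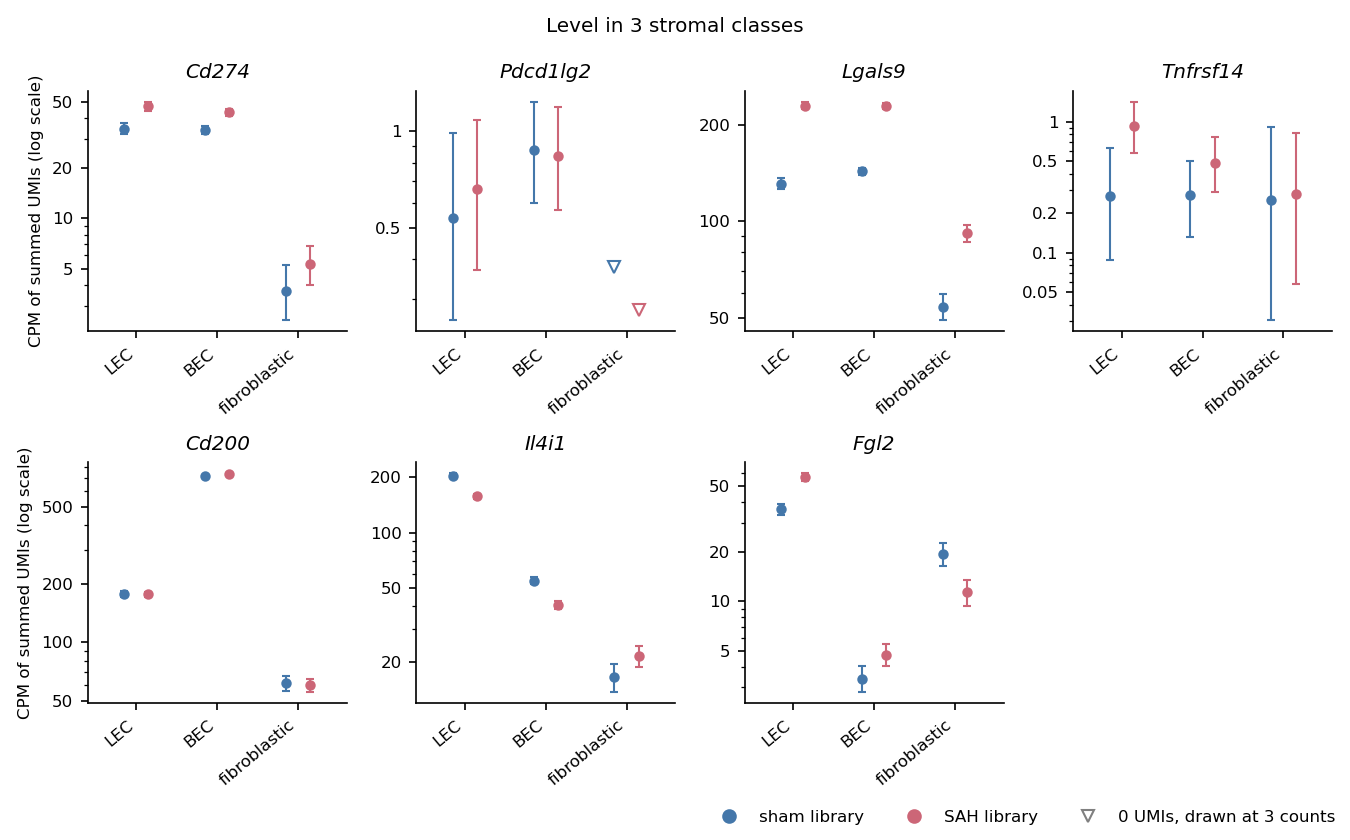
Level of each gene in CPM of summed UMIs (y axis, log scale that differs between panels) in LEC, BEC and fibroblastic stroma (x axis), 1 point per library with its 95% counting interval; open triangles mark 0 UMIs drawn at the level of 3 counts. The SAH point lies above the sham point in all 3 classes for Lgals9, and Pdcd1lg2 and Tnfrsf14 stay at or below 0.925 CPM.

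LEC were split by 3 marker sets into cells with Ackr4 only, a decoy chemokine receptor of the sinus ceiling (1096 sham and 982 SAH cells), cells with Madcam1 or Coch only, genes of the sinus floor (447 and 452), and cells with the scavenger receptor gene Marco only (92 and 244), beside cells with several of these sets (160 and 359) and with none (569 and 525). Marco itself was at 165 CPM in sham and 312 CPM in SAH LEC, and its part in the differences of the Marco group was not tested. Lgals9 was higher in the SAH library in each of these 5 groups, from 1.69-fold in cells with no marker to 1.91-fold in the Marco group. Its level was lowest in the Madcam1/Coch group in both libraries, at 94.6 and 165 CPM, against 143 and 247 CPM in the Ackr4 group. The other 3 groups lay between 128 and 145 CPM in the sham library and between 228 and 254 CPM in the SAH library, with no neighbours in that order separated by their intervals. Among BEC the level was highest in cells with the arterial genes Gja5 or Sema3g (188 and 280 CPM), then in cells with neither set (142 and 223 CPM), and lowest in cells with the HEV genes Chst4 or Fut7 (115 and 200 CPM). In fibroblastic stroma the cells with at least 2 UMIs of Ccl19, the T-zone chemokine, held 48.1 and 90.0 CPM against 58.6 and 91.8 CPM in cells with neither Ccl19 at that level nor Pi16. Cells with Pi16 held 123 and 165 CPM, a ratio of 1.34 whose interval included 1 (0.848 to 2.12). Among BEC without a UMI of Mmrn1, Lyve1 or Reln, a subset chosen after these values were seen, the log2 difference of Lgals9 was 0.65, beside 0.68 in all BEC.

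Cd274, the PD-L1 gene, was at 34.5 and 47.1 CPM in sham and SAH LEC and at 33.8 and 43.2 CPM in BEC. This was 1.37-fold higher in SAH LEC (1.24 to 1.51) and 1.28-fold in SAH BEC (1.19 to 1.38), both short of the 1.5-fold mark. Fibroblastic stroma held 29 and 57 UMIs, or 3.65 and 5.30 CPM, a ratio of 1.45 with an interval from 0.911 to 2.35. LEC were 9.43-fold above fibroblastic stroma in the sham library and 8.90-fold above it in the SAH library. Thinned to equal depth, 6.24% and 8.17% of LEC held a Cd274 UMI, 6.75% and 7.84% of BEC, and 0.982% and 0.970% of fibroblastic stroma. Without thinning these shares were 19.2% and 26.9%, 15.2% and 18.2%, and 1.5% and 3.25%. In fibroblastic stroma the log2 difference was 0.54 and turned to -0.12 after thinning.

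Within LEC, Cd274 differed more between the marker groups than between the libraries. The Madcam1/Coch group held 62.2 and 68.2 CPM, the Marco group 51.8 and 69.6 CPM, cells with several marker sets 38.0 and 63.0 CPM, cells with none 35.7 and 45.8 CPM, and the Ackr4 group 18.4 and 25.9 CPM. The Madcam1/Coch group was 3.37-fold above the Ackr4 group in the sham library (2.75 to 4.14) and 2.63-fold in the SAH library (2.20 to 3.14), and the Marco group 2.81-fold and 2.69-fold. Madcam1/Coch and Marco groups were not separated from each other in either library. The SAH over sham ratio was 1.41 in the Ackr4 group (1.14 to 1.74) and 1.66 in cells with several marker sets (1.26 to 2.21), and its interval included 1 in the Madcam1/Coch group (1.10, interval 0.922 to 1.30) and the Marco group (1.35, interval 0.912 to 2.04). Whether these ratios differ from each other was not tested. In BEC the ratio was 1.42 in cells with arterial genes, 1.30 in cells with neither set, and 1.17 in cells with HEV genes, where the interval reached 0.998.

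**Figure D3:**
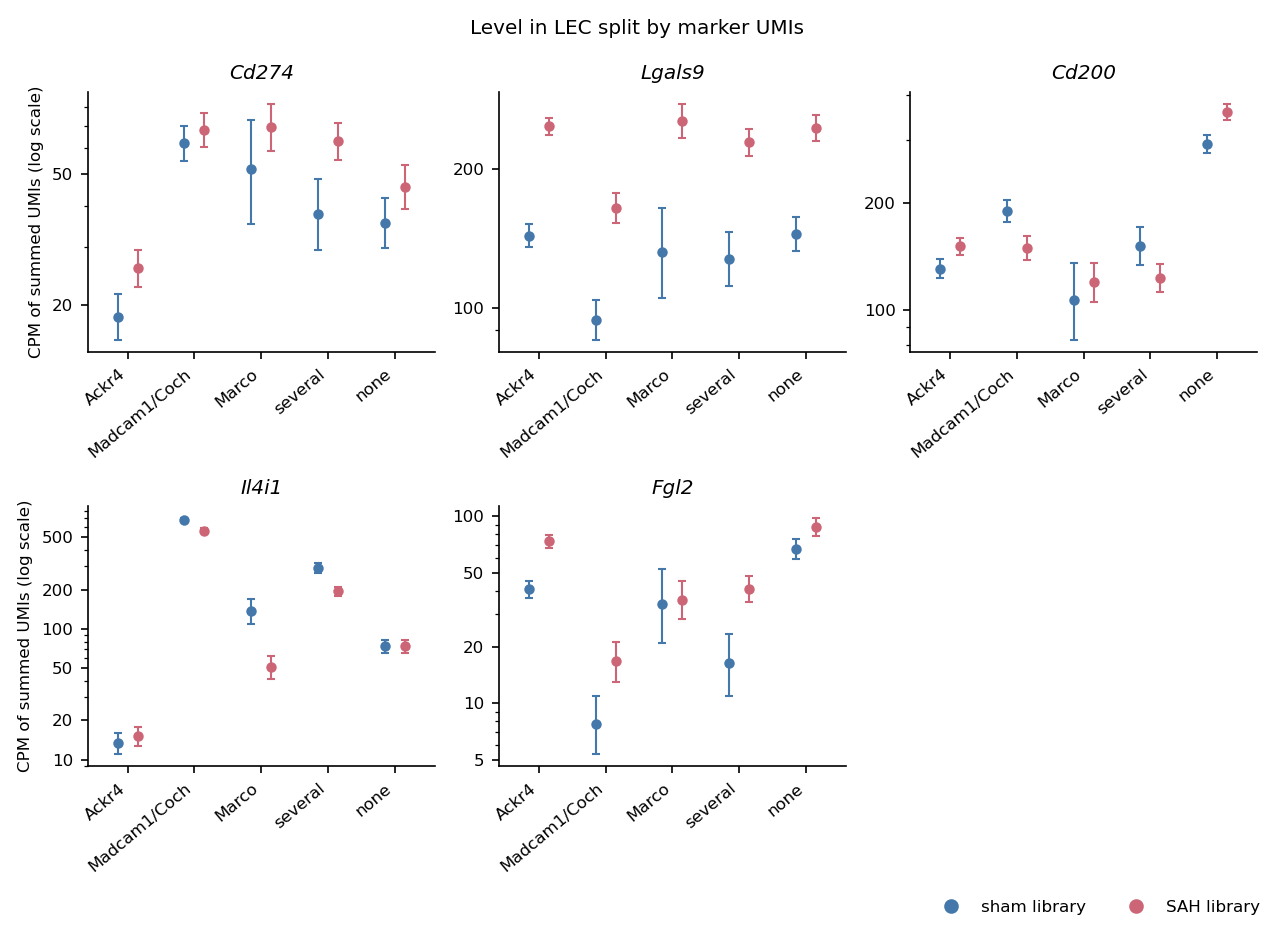
Level of 5 genes in CPM of summed UMIs (y axis, log scale that differs between panels) in LEC grouped by the marker UMIs they hold (x axis), 1 point per library with its 95% counting interval. Il4i1 and Cd274 are lowest in the Ackr4 group, Fgl2 and Lgals9 are lowest in the Madcam1/Coch group, and Cd200 is highest in cells with no marker.

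Pdcd1lg2, the PD-L2 gene, was barely detected. Sham LEC held 10 UMIs and SAH LEC 15, and BEC 32 and 31, which gave ratios of 1.23 (0.515 to 3.05) and 0.955 (0.564 to 1.62). Fibroblastic stroma held 0 UMIs in both libraries, where a count of 0 allows up to 0.378 and 0.279 CPM. Tnfrsf14, the HVEM gene, gave 5 and 21 UMIs in LEC, 10 and 18 in BEC and 2 and 3 in fibroblastic stroma. The LEC ratio of 3.43 has an interval from 1.26 to 11.7 and rests on 26 UMIs, under the number set for a gene to be counted. A difference in either gene in BEC or fibroblastic stroma was not detectable at this depth.

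Cd200 was highest in blood endothelium. Its level was 719 and 734 CPM in sham and SAH BEC, 177 and 177 CPM in LEC and 61.4 and 60.0 CPM in fibroblastic stroma. Sham BEC stood 11.7-fold above sham fibroblastic stroma, and 72.7% and 71.5% of BEC thinned to equal depth held a Cd200 UMI, against 21.9% and 23.2% of LEC and 9.75% and 9.70% of fibroblastic stroma (unthinned 89.4% and 87.5%, 42.6% and 48.8%, and 19.0% and 23.7%). The lowest thinned share was in cells outside these classes with a UMI of the leukocyte gene Ptprc, at 5.26% of 114 sham and 6.41% of 78 SAH cells; unthinned it was 13.1% of 176 and 11.6% of 95 cells, whose median depth was 2372.5 and 2665 UMIs. The SAH over sham ratio was 1.00 in LEC (0.952 to 1.04), 1.02 in BEC (1.00 to 1.04) and 0.978 in fibroblastic stroma (0.868 to 1.10). Within BEC, cells with HEV genes held the least, 522 and 533 CPM, and cells with arterial genes and with neither set 767 and 790 CPM and 802 and 816 CPM.

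Within LEC the Cd200 ratios of the groups lay on both sides of 1. Cd200 was 131 CPM in sham and 151 CPM in SAH cells of the Ackr4 group (ratio 1.15, interval 1.06 to 1.25) and 293 and 360 CPM in cells with no marker (1.23, interval 1.13 to 1.33). In the Madcam1/Coch group it was 190 and 150 CPM (0.786, interval 0.706 to 0.875), and in cells with several marker sets 152 and 123 CPM (0.811, interval 0.696 to 0.945). The Madcam1/Coch group was 1.45-fold above the Ackr4 group in the sham library, and the pair did not separate in the SAH library (0.991, interval 0.899 to 1.09). Cells with no marker were highest in both libraries. Among the LEC groups the 7 BEC markers also summed highest there, at 5225 and 6550 CPM, and their part in the Cd200 level was not tested. Over the 10 alternatives the log2 difference in LEC as a whole ran from -0.09 to 0.13, so its sign was not fixed.

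Among the ratios between LEC groups computed here, the largest was that of Il4i1. In the sham library the Madcam1/Coch group held 680 CPM, cells with several marker sets 292 CPM, the Marco group 136 CPM, cells with no marker 73.5 CPM and the Ackr4 group 13.3 CPM, and every neighbouring pair was separated by its interval. The SAH library had 563, 193, 50.8, 73.4 and 15.1 CPM in the same groups. The Madcam1/Coch group was 51.1-fold above the Ackr4 group in the sham library (42.3 to 62.3) and 37.2-fold in the SAH library (31.3 to 44.5). At equal depth an Il4i1 UMI was found in 60.1% and 58.9% of cells of the Madcam1/Coch group and in 1.93% and 2.86% of the Ackr4 group (unthinned 88.8% and 84.7%, and 6.02% and 7.54%).

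Over all LEC, Il4i1 stood at 203 CPM in sham and 158 CPM in SAH cells, a ratio of 0.776 (0.741 to 0.812), and over BEC at 55.0 and 40.8 CPM, a ratio of 0.743 (0.695 to 0.795). In fibroblastic stroma it was at 16.5 and 21.6 CPM, a ratio of 1.31 (1.05 to 1.63). None of these reached 1.5-fold. In the Marco group the SAH level was 0.374 times the sham level (0.278 to 0.504), from 84 and 105 UMIs in 92 and 244 cells, and the 10 highest cells held 73.8% of the sham UMIs there. The ratio was 0.827 in the Madcam1/Coch group and 0.662 in cells with several marker sets, and its interval included 1 in the Ackr4 group and in cells with no marker. The share of LEC with an Il4i1 UMI at equal depth was 17.0% and 17.4%, so the lower SAH level was not accompanied by a lower share of cells, and with every cell thinned the log2 difference was -0.12 in place of -0.37. The 5 floor markers did not move as one beside it. Ccl20 was at 1390 and 305 CPM in sham and SAH LEC, Coch at 262 and 214 CPM and Madcam1 at 166 and 120 CPM, while Csf1 was at 413 and 447 CPM and Itga2b at 127 and 366 CPM; their part in the Il4i1 result was not tested. In BEC the lower level was found in cells with HEV genes (78.0 and 61.7 CPM) and with neither gene set (51.3 and 35.0 CPM), and cells with arterial genes held 29.5 and 29.2 CPM.

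Fgl2 was highest in LEC and lowest in BEC. LEC held 36.1 and 56.4 CPM, fibroblastic stroma 19.3 and 11.3 CPM and BEC 3.40 and 4.72 CPM. The SAH level was 1.56-fold higher in LEC (1.42 to 1.72) and 1.39-fold in BEC (1.10 to 1.77, from 124 and 175 UMIs), and in fibroblastic stroma it was 0.588 times the sham level (0.460 to 0.751). Few cells carried it, since 5.42% and 7.61% of LEC had an Fgl2 UMI at equal depth (unthinned 11.1% and 16.0%), and the 10 highest cells held 22.8% and 14.4% of the LEC UMIs. With each cell thinned the log2 difference in LEC was 0.28, in place of 0.65, and without those 10 cells of each library it was 0.80. In BEC it was 0.03 after thinning, in place of 0.48. The 9 fibroblastic markers, which summed to 1218 CPM in sham and 2215 CPM in SAH BEC with Dcn at 608 and 1293 CPM, moved with the BEC difference, and their part in it was not tested.

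Among LEC groups Fgl2 was highest in cells with no marker, at 66.9 and 87.9 CPM, then in the Ackr4 group at 40.7 and 73.4 CPM, and lowest in the Madcam1/Coch group at 7.80 and 16.7 CPM. The Marco group held 34.0 and 35.8 CPM and cells with several marker sets 16.4 and 40.8 CPM. The ratio of SAH to sham was 1.80 in the Ackr4 group and 2.15 in the Madcam1/Coch group, where the 10 highest cells held 96.9% and 79.7% of the UMIs, and 1.05 in the Marco group with an interval from 0.642 to 1.80. Cells with a Ptprc UMI outside the 3 classes held 42.4 and 133 CPM, from 23 and 42 UMIs. Removing LEC with a UMI of Ptprc, Cd79a, Cd3e, Lyz2 or Csf1r, which were 3.6% and 4.22% of them, left the log2 difference of Fgl2 in LEC at 0.66.

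In fibroblastic stroma the lower Fgl2 level rested on few cells, and the makeup of the class differed between the libraries. The 10 cells of each library with most Fgl2 UMIs held 66.7% and 49.2% of them; without these cells the log2 difference was -0.16 in place of -0.77, and with equal weight for every cell it was -0.059, both short of 1.5-fold. Cells with at least 2 Ccl19 UMIs were 61.1% of sham and 77.2% of SAH fibroblastic stroma, and they held little Fgl2, at 4.52 and 2.83 CPM (ratio 0.626, interval 0.347 to 1.13). Cells with Pi16, a gene of adventitial fibroblasts, held 39.1 and 56.4 CPM and the remaining cells 53.7 and 65.2 CPM, so in neither was the SAH level below the sham level (ratios 1.44, interval 0.629 to 3.33, and 1.21, interval 0.900 to 1.63). With the 3 groups weighted to their sham shares, an alternative chosen after these values were seen, the log2 difference was 0.01. Ccl19 itself was at 2004 and 2677 CPM in the class, and its part in the shares of these groups was not tested.

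**Figure D4:**
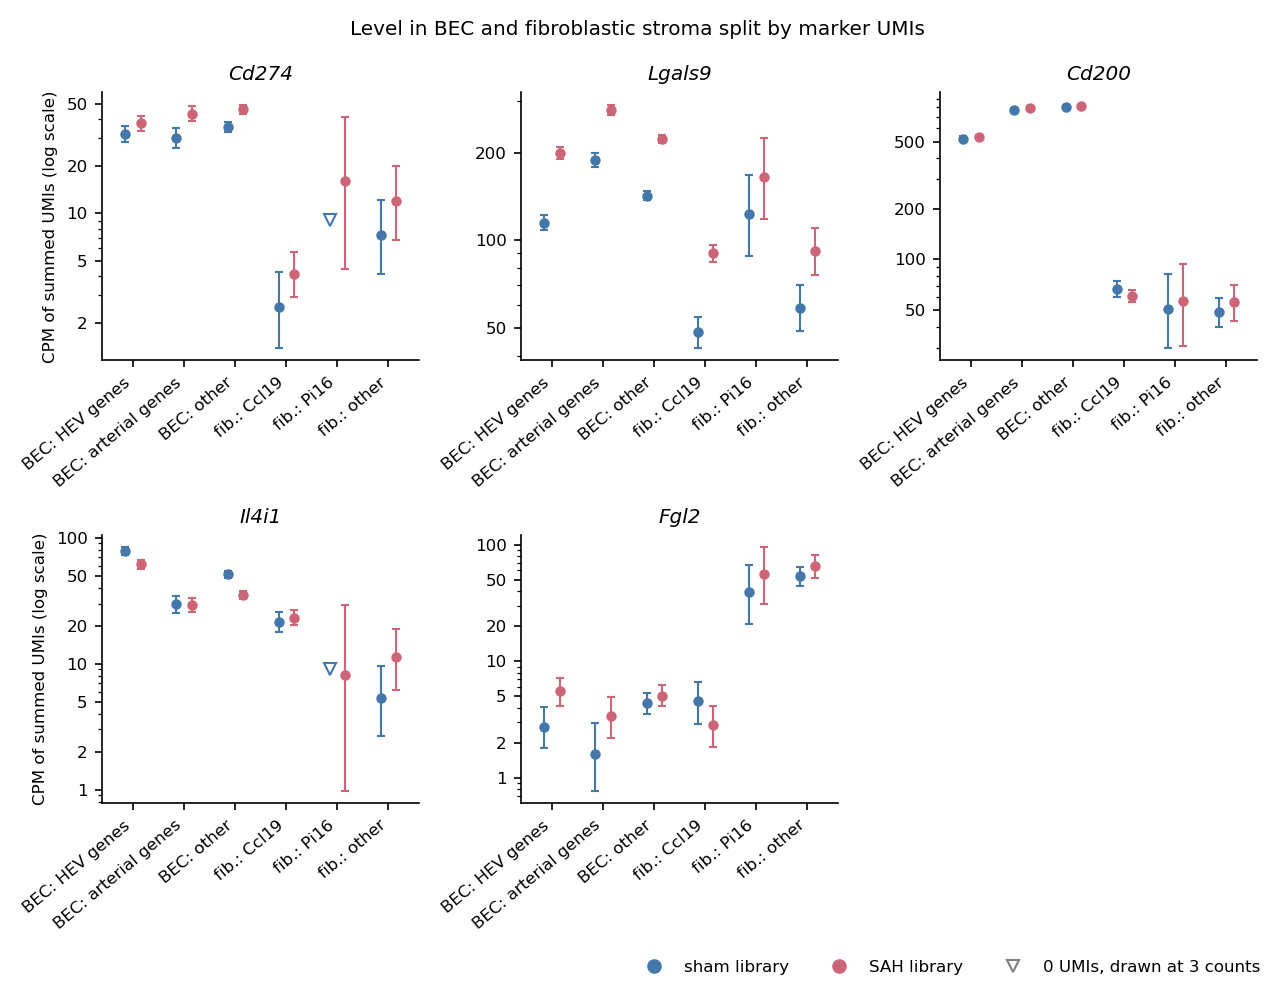
Level of 5 genes in CPM of summed UMIs (y axis, log scale that differs between panels) in BEC and fibroblastic stroma (fib.) grouped by marker UMIs (x axis), 1 point per library with its 95% counting interval; open triangles mark 0 UMIs drawn at the level of 3 counts. Fgl2 is at most 4.52 CPM in the Ccl19 group and at least 39.1 CPM in the other fibroblastic groups, and Lgals9 lies higher in the SAH library in each of the 3 BEC groups.

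The members were also compared cell by cell in LEC thinned to equal depth. In the sham library 12.9% of LEC with an Il4i1 UMI also held a Cd274 UMI, against 4.88% of LEC without, and in the SAH library 12.8% against 7.19%. Within the Madcam1/Coch group the shares were 13.8% against 14.0% and 13.4% against 13.7%. In the Ackr4 group they were 4.76% against 2.72% and 10.7% against 4.53%, and in the Marco group 8.33% against 7.89% and 15.4% against 8.07%. Cells with several marker sets had 14.9% against 8.85% and 15.6% against 11.2%. Cells with no marker had 10.4% against 4.85% in the sham library and 4.65% against 7.35% in the SAH library. The intervals overlapped within each group. For Fgl2 and Il4i1, 2.38% of sham LEC with Fgl2 held Il4i1 against 17.9% of those without it, and 4.71% against 18.4% in the SAH library. Within each group the share was also lower in cells with Fgl2 in both libraries, but the intervals overlapped each time. In the SAH library 5 of 9 Fgl2 cells of the Madcam1/Coch group held Il4i1 (55.6%) against 58.9% of those without, and 1.89% against 2.98% in the Ackr4 group. Among SAH cells with several marker sets the shares were 4.55% against 26.5%, and among those with no marker 2.44% against 9.31%. In the sham library it was 1 of 5 cells (20.0%) against 60.5% in the Madcam1/Coch group and 0 of 69 against 2.06% in the Ackr4 group, where a count of 0 gives an upper bound of 5.21%. In the SAH library 41.5% of LEC with Cd274 held Lgals9 (34.6% to 48.5%) against 31.4% of those without (29.5% to 33.3%), while in the sham library the shares were 21.4% and 21.5%.

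Other genes with the most similar profiles were found over 16 profiles, the 3 classes and 5 LEC groups in both libraries, by Pearson's r of log2(CPM + 1) among 8231 genes. The profiles overlap, because LEC contain their own groups, and share their libraries. Cd274 was most like Dcst1 (0.971), Psmb9, an immunoproteasome subunit (0.969), and Trim30a (0.969). Lgals9 was most like Gbp3, an interferon-inducible GTPase (0.976), Map3k6 (0.968) and Smc1a (0.967). Cd200 was most like Dcbld1 (0.972), Inhbb (0.969) and Abcg2, a transporter (0.965), Il4i1 like Kcnj2, a potassium channel (0.966), Mcemp1 (0.959) and Nudt17 (0.957), and Fgl2 like Kdelc2 (0.900), Loxl2 (0.889) and Nsmaf (0.887). The nearest genes to Pdcd1lg2 were Gapdh (0.907), Dennd2d (0.885) and Psma6 (0.867) and those to Tnfrsf14 were Tesk1 (0.849), Ldb1 (0.837) and Asna1 (0.833), from profiles of very few UMIs. Between the members, r was 0.68 for Cd274 with Lgals9 and also with Il4i1, and -0.30 for Cd200 with Fgl2.

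Most genes of the partners of these proteins gave few UMIs in these leukocyte-depleted libraries. Of 9 partner genes 2 reached 30 UMIs in LEC, 3 in BEC and 2 in fibroblastic stroma, and Pdcd1, the PD-1 gene, had 1 and 6 UMIs in LEC and 0 in BEC and fibroblastic stroma. Fcgr2b, the inhibitory Fc receptor gene, was at 6.52 and 11.4 CPM in LEC (1.76-fold higher in SAH, interval 1.41 to 2.20) and at 0.602 and 1.67 CPM in BEC (2.78-fold), and in fibroblastic stroma at 0.558 times its sham level. Rgmb, a PD-L2 partner, was at 13.4 and 11.4 CPM in LEC and at 20.2 and 15.5 CPM in BEC. In fibroblastic stroma Rgmb was at 0.603 times its sham level. The list's median log2 difference was 0.29 in LEC, -0.38 in BEC and -0.78 in fibroblastic stroma.

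Of 27 other genes with checkpoint or tolerance roles, 18 reached 30 UMIs in LEC, 19 in BEC and 14 in fibroblastic stroma. In LEC 4 were higher and 2 lower, in BEC 6 higher and 2 lower, and in fibroblastic stroma 4 higher and 1 lower, with medians of 0.22, 0.32 and 0.17. H2-T23, which encodes the nonclassical MHC molecule Qa-1 that is read by inhibitory receptors, was 275 and 808 CPM in LEC, 2.94-fold higher in the SAH library, 2.73-fold in BEC and 3.75-fold in fibroblastic stroma. Also higher were Ceacam1 (1.75-fold), Ptges (1.68-fold) and Tgfb1 (1.56-fold) in LEC, Lgals3 (2.91-fold), Ptges (1.99-fold) and Lgals1 (1.58-fold) in BEC, and Lgals3 (2.44-fold), Tgfb1 (2.14-fold) and Cd24a (1.53-fold) in fibroblastic stroma. Cd276, the B7-H3 gene, was 0.293 times its sham level in LEC, from 67 and 24 UMIs, and 0.422 times in BEC. Ptgs2, an inducible prostaglandin synthase, was 0.487 times its sham level in LEC and 0.603 times in fibroblastic stroma, and Nos2, inducible nitric oxide synthase, 0.582 times in BEC.

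Of 20 interferon receptor, JAK-STAT and PD-L1 regulator genes, all of which reached 30 UMIs in each class, 1 was lower in LEC, 0 in BEC and 1 in fibroblastic stroma, and the median log2 differences were -0.10, -0.03 and -0.16. Counts of higher genes are not given for this list, because they include 1 gene that is not reported here. Myc, a growth regulator, was the lower gene in both, at 0.583 times its sham level in LEC and 0.646 times in fibroblastic stroma. Stat2 (2.13-fold) and Irf9 (1.58-fold), which act together downstream of the type I interferon receptor, were higher in SAH fibroblastic stroma. Short of 1.5-fold, they were also higher in SAH LEC (1.43-fold and 1.35-fold) and SAH BEC (1.48-fold and 1.33-fold), with intervals that leave out 1. The receptor genes Ifngr1 and Ifnar2 were at 0.822 and 0.826 times their sham level in LEC.

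On mm10 in GENCODE M21 the members lie on chromosome 19 from 29367455 to 29388095 (Cd274, plus strand) and from 29410919 to 29471161 (Pdcd1lg2, plus strand), on chromosome 11 from 78962974 to 78984946 (Lgals9, minus strand), on chromosome 4 from 154921933 to 154928563 (Tnfrsf14, minus strand), on chromosome 16 from 45382135 to 45409053 (Cd200, minus strand), on chromosome 7 from 44816387 to 44840809 (Il4i1, plus strand) and on chromosome 5 from 21372642 to 21378374 (Fgl2, plus strand). Il4i1 overlaps Nup62 on the same strand over 14426 bases, and 1.15% of the 50-base stretches of its transcripts also occur in Nup62, so reads there cannot be told apart. The shares of such stretches found in other genes were 4.25% for Tnfrsf14 and 1.68% for Cd274, and 0 for the other members. Fgl2 lies within the span of Ccdc146 on the other strand. Whether counting used strand is not given in the sources used here, so the antisense partners of Fgl2, Cd274, Pdcd1lg2 and Il4i1 remain uncertain.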

How the data were processed

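The authors deposited unnormalised UMI counts, whole numbers that sum to 72860197 (sham) and 78497486 (SAH). Cell Ranger 5.0, STAR, Seurat 3.0.2 and build mm10 are named per the submitters' processing notes, and per the file headers version 5.0.0 of the counting software. The lowest barcode totals were 502 and 501 UMIs, and whether introns were counted is not given in the sources used here. Counts of entries that share a symbol were summed. Of 13952 sham and 13766 SAH barcodes, those with at least 500 genes and at most 10% mitochondrial UMIs were kept; no doublets were removed in the values reported. CPM are the UMIs of a gene summed over a class, relative to all UMIs of that class. Ratios carry exact conditional binomial 95% intervals and shares of cells exact Clopper-Pearson 95% intervals. These, and the floor of 3 counts used for a count of 0, cover counting error only. Thinning to 2000 UMIs left out 40 sham and 53 SAH LEC, 552 and 626 BEC, and 107 and 84 cells of fibroblastic stroma. With 1 library per group no test was made. The interval code was tested on simulated data.

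The members and the gene lists were chosen with earlier results of these data known. All 7 members are named in every class. Of the lists, genes are named that have at least 50 UMIs, differ at least 1.5-fold and have an interval that leaves out 1, at most 6 per list and class by size; 1 gene that met this rule is not reported here. Of the genes with similar profiles the first 3 per member are named among genes reaching 20 CPM, without mitochondrial, ribosomal protein and predicted genes, the genes of the class rules and the members. The alternatives were a stricter barcode filter, Scrublet (scanpy 1.11.5) doublets removed, stricter class thresholds, removal of cells with leukocyte UMIs, TMM scaling (edgeR 4.0.16), a total without mitochondrial and ribosomal protein genes, equal weight per cell, thinning, leaving out the 10 highest cells, fixed group shares, marker groups at 2 UMIs and other UMI minimums. TMM scaling moved no class by over 0.1 on the log2 scale. Promoters were read from RefSeq tables of GRCm38.p6. Analyses ran in Python 3.11.15 with numpy 2.4.6, scipy 1.17.1 and pandas 2.3.3, and in R 4.3.3.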

Additional observations from a re-analysis of the deposited data

Results flagged for a closer look

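Il4i1 lay on opposite sides of 1 in different classes. SAH over sham it stood at 0.776 in LEC and 0.743 in BEC and 1.31 in fibroblastic stroma, each with a counting interval that leaves out 1. Fgl2 did so the other way round, at 1.56 in LEC, 1.39 in BEC and 0.588 in fibroblastic stroma. Among LEC groups Cd200 was at 1.15 in the Ackr4 group and 1.23 in cells with no marker, and at 0.786 in the Madcam1/Coch group and 0.811 in cells with several marker sets. With 1 library per group the difference between classes or groups was not tested.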

How the results depend on the processing

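Of 166 log2 differences recomputed under the alternatives, for 16 combinations of gene and class with at least 30 UMIs, 145 stayed within the counting interval of the reported value, 20 moved outside it and 1 reversed. In 11 of the 16 the sign held in every alternative tried. Lgals9 ran from 0.78 to 0.82 in LEC, 0.65 to 0.70 in BEC and 0.62 to 0.82 in fibroblastic stroma. Cd200 in LEC was -0.090 without doublets, 0.13 with equal weight per cell, 0.10 thinned and 0.081 with fixed group shares; in BEC it was 0.0012 under TMM scaling, and in fibroblastic stroma 0.14 thinned. Il4i1 in LEC was -0.52 under the strict filter, -0.18 with equal weight and -0.12 thinned. Fgl2 in LEC was 0.39 with equal weight, 0.28 thinned and 0.80 without the 10 highest cells, and in BEC 0.99 under the strict filter and 0.034 thinned. Fgl2 in fibroblastic stroma was -1.29 under the strict filter, -1.26 with stricter class thresholds, -0.059 with equal weight, -0.16 without the 10 highest cells and 0.011 with fixed group shares, chosen after seeing the data. Pdcd1lg2 in BEC was -1.24 thinned, and Cd274 in fibroblastic stroma 1.28 without the 10 highest cells.

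With LEC marker groups at 2 UMIs, the log2 ratio of the Madcam1/Coch over the Ackr4 group was 0.76 for Cd200, 6.17 for Il4i1 and -3.16 for Fgl2 in the sham and -2.58 for Fgl2 in the SAH library. That of the Marco over the Ackr4 group was -0.83 for Cd200 and 4.10 for Il4i1 in the sham, and -0.80 for Cd200 and -1.70 for Fgl2 in the SAH library. That of the Marco over the Madcam1/Coch group was -1.59 for Cd200 and 2.96 for Fgl2 in the sham, and -0.74 for Cd200 and 0.80 for Lgals9 in the SAH library. Where a value moved the cause was not tested. No paired analysis was possible because each group is 1 library. Depth limits Pdcd1lg2 and Tnfrsf14.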
